A study of Mus musculus with 7 samples.

Results

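The set described here holds 41 mouse genes of DNA replication and of the passage from G1 into S phase, given as a list of names. The list was chosen with earlier results of these data known. Probe sets annotated to a single gene measured 39 of them, among 22180 genes in all, and of several such probe sets the one highest on average stood for the gene. Rfc4 and Ccne2 were covered only by probe sets shared with a neighbouring gene and are left out of every count. No filter on dim signal was applied, and 36 of the 39 had a mean at or above the median gene.

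Before a cell copies its genome, the origin recognition complex, Cdc6 and Cdt1 load the ring-shaped Mcm2-7 helicase onto DNA, a step called licensing. Cdc45 and the GINS complex then turn the loaded rings into active helicases, primase and the polymerases copy the strands behind them, and enzymes of nucleotide synthesis supply the building blocks. Many of these genes are switched on together by E2F transcription factors once the retinoblastoma protein has been inactivated. In the stomach corpus, dividing cells sit mainly in the isthmus of the gland, while parietal cells, the acid-secreting cells, do not divide.

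Expression was measured on 1 single-channel array per sample from snap-frozen gastric corpus of Atp4b-DTR mice aged 8 to 12 weeks. All mice, controls included, carried this transgene, which by its name places the diphtheria toxin receptor under the promoter of the parietal cell gene Atp4b, so that diphtheria toxin ablates parietal cells reversibly. Mice received saline or 225 ng of toxin per mouse on 3 days, and there was 1 array for the saline control, 1 for 24 h after the last toxin dose, 1 for 36 h and 2 each for 48 h and 72 h. The 48 h and 72 h samples are described as independent, with no more said about the animals, so the p-values below measure only the spread between these arrays. Values are log2 signal as deposited, and a difference of 1 is a 2-fold change. In whole tissue, more cells of a type and more RNA per cell cannot be told apart.

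Facts of the arrays that touch these results are given here once. Array medians of log2 signal ran from 4.56 to 4.71. Atp4b itself had a log2 signal of 12.94 on the control array, next to 10.68 at 24 h and 12.33 at 36 h, then 11.66 and 12.39 at 48 h, followed by 12.65 and 12.92 at 72 h. The median difference of 11 parietal cell genes from the control was -1.41 at 24 h and -0.62 at 36 h, then -1.25 and -0.72 at 48 h, followed by -0.41 and -0.13 at 72 h, so these genes were furthest below the control at 24 h, where the replication genes were furthest above it. Of 7 chief cell genes, 1 was above the control at 24 h and 0 on the later arrays, with medians from -0.67 to -1.45. Xist, an RNA of female cells, stood at 8.13 on the control array and 9.17 at 24 h, against 2.70 to 3.27 on the later arrays, so the 24 h array shared the sex pattern of the control and the later 5 arrays did not. For 36, 48 and 72 h, sex and treatment therefore cannot be told apart in differences from the control. Markers of T and NK cells, dividing cells of another type that the tissue could hold, had a mean log2 signal of 4.17 to 4.40 on the toxin arrays and 4.17 on the control, with 3 to 5 of 7 measured genes above the control. B and plasma cell markers averaged 4.10 to 4.74 on the toxin arrays and 4.40 on the control, with 2 to 5 of 6 genes above it, and 3 measured markers of erythroid precursors averaged 4.37 to 4.51 on the toxin arrays and 4.33 on the control. Macrophage markers averaged 5.98 to 6.31 on the toxin arrays and 6.14 on the control, with 0 to 5 of 8 genes above it. Markers of the squamous forestomach averaged 3.82 to 5.66 on the toxin arrays and 5.02 on the control. The 6 markers of intestinal goblet cells averaged 6.16 to 8.14 on the toxin arrays and 5.61 on the control, with 4 to 6 genes above it, and were lowest of the toxin arrays at 24 h, where the replication genes were highest. The 6 endothelial markers were all below the control on every toxin array, at 6.62 to 6.90 against 7.75. The part of these cells in the results was not tested, and no marker list has a test of its own here.

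Promoter sequence is shown because most of these genes were above the control together and E2F proteins bind a short word, of which the letters TTTCCCGC, TTTCGCGC, TTTGCCGC and TTTGGCGC were searched. In the RefSeq promoter table of GRCm38.p6, 35 of the 41 genes had a promoter, and 10 of these 35 (28.6%) held at least 1 such word on either strand within 250 bases upstream of the start of transcription. Among all 27025 genes of that table, 2.16% did. Of the same 35 genes 57.1% held CCAAT and 68.6% held the GC box GGGCGG, against 37.5% and 35.4% of all genes; words on opposite strands, and E2F words and GC boxes, can share bases. The 6 genes with a word and the largest mean difference of the toxin arrays from the control are printed 5′ to 3′ on the strand of the gene, with the words in capitals. The stretches are Hells at chr19:38930908-38930955 (plus strand), Mcm5 at chr8:75109336-75109387 (plus strand), Mcm6 at chr1:128359725-128359835 (minus strand), Pola1 at chrX:93632266-93632313 (minus strand), Mcm7 at chr5:138172021-138172068 (minus strand) and Uhrf1 at chr17:56304108-56304155 (plus strand).
Hells: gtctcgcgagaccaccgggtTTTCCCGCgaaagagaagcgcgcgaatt
Mcm5: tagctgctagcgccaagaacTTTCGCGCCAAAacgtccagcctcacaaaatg
Mcm6: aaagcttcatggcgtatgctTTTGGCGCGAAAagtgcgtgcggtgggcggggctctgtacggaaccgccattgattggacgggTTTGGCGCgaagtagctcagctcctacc
Pola1: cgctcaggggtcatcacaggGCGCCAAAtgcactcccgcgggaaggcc
Mcm7: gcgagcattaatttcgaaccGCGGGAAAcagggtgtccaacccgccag
Uhrf1: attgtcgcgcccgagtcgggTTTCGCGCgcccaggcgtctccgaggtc
Mcm5 carried 2 words that share bases, and Mcm6 carried 3, of which 2 share bases. For Mcm7 and Uhrf1, 1 of 2 promoters held the word. The others that held a word were Cdc6, Orc1, Rfc3 and Gins3. Gins3 had a mean difference of the toxin arrays from the control of -0.05. Rrm2 and Lig1, with mean differences of 1.42 and 1.20, held no such word. Whether a word goes with a larger difference was not tested. A match is a description of the letters, not a binding site.

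**Figure D1:**
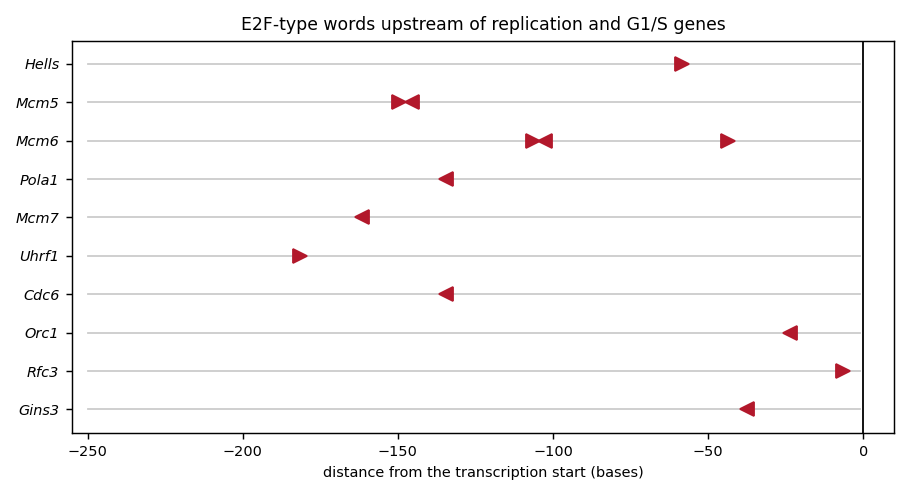
Position of each E2F-type word (triangle, pointing right on the strand of the gene and left on the other) in the 250 bases upstream of the transcription start, in bases, for the 10 genes that held one. Genes run from the largest mean difference of the toxin arrays from the control (Hells) to the smallest (Gins3).

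Genes of the replication machinery stood above saline tissue on nearly every toxin array, by most at 24 h and by least at 72 h. Their median difference from the control array (39 genes) was 0.82 at 24 h and 0.60 at 36 h, then 0.61 and 0.54 at 48 h, followed by 0.39 and 0.31 at 72 h. The median over all 22180 genes was 0.00 on each of these arrays. Of the 39, 36 lay above the control on all 6 toxin arrays, as did 20.2% of all genes, and the exceptions were Gins3, Cdc45 and Dut. All 6 differences of a gene share the lone control array. A trait of that array and an effect of the toxin cannot be told apart in them. The 24 h array was the highest of the 7 arrays for 31 of the 39, as it was for 14.2% of all genes. Among the toxin arrays the 24 h array was also the only 1 with the sex pattern of the control, so time and sex cannot be told apart where it is set against the later arrays. The 48 h and 72 h arrays shared 1 sex pattern.

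**Figure D2:**
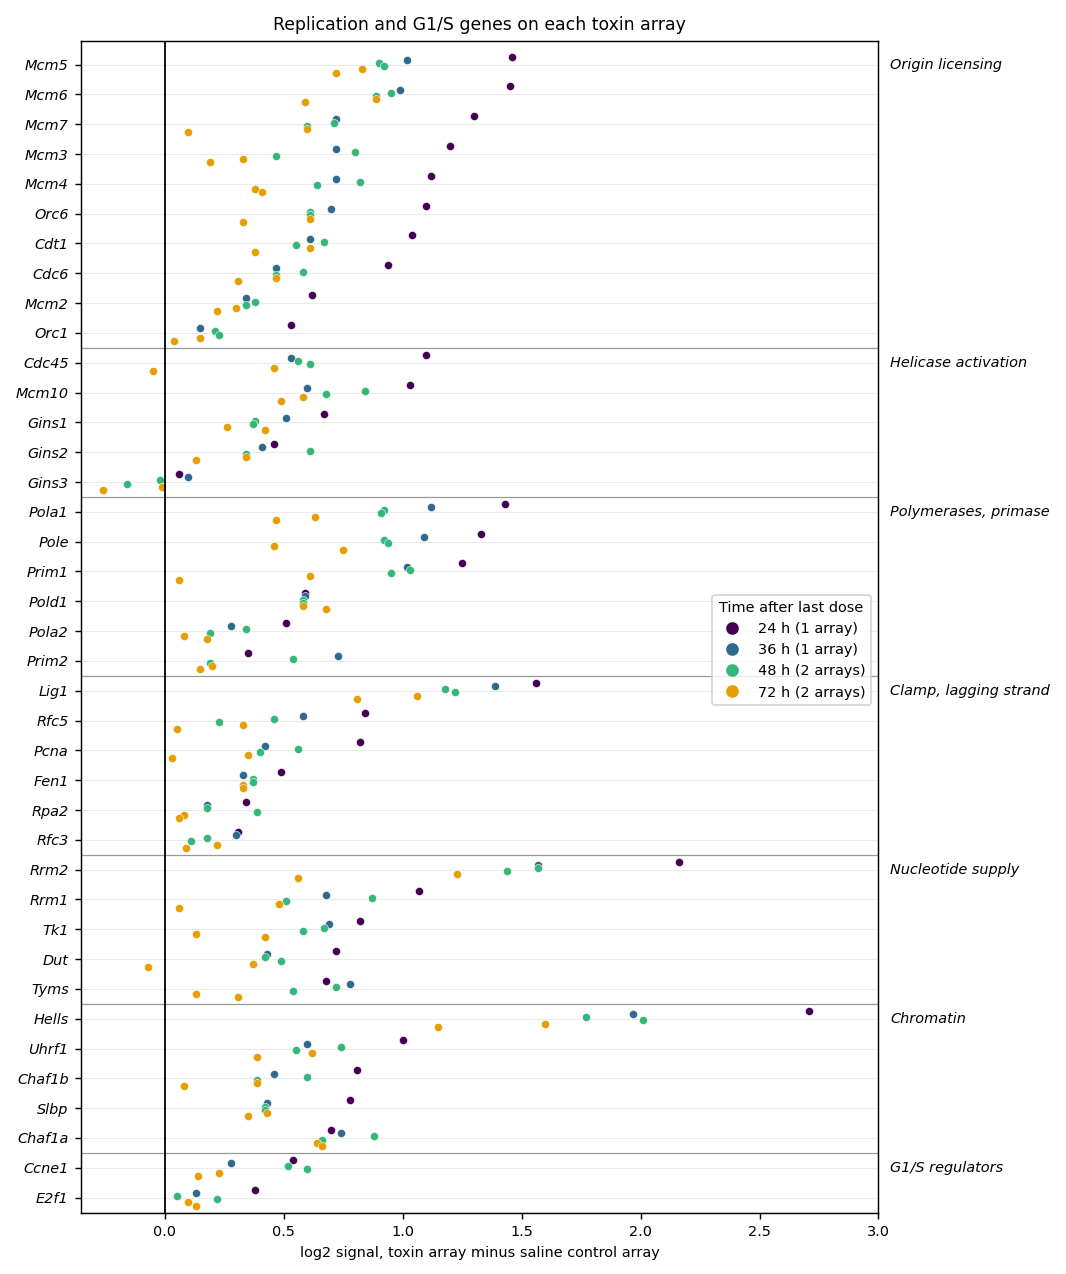
Log2 signal on each toxin array minus the saline control array (horizontal axis) for the 39 measured genes, grouped by step, with 1 point per array coloured by hours after the last dose; points are spread vertically for legibility. The 24 h points lie furthest right for most genes, from 0.06 for Gins3 to 2.71 for Hells, and the 72 h points lie nearest to 0 for most.

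The single arrays at 24 h and 36 h were not tested against the control; differences of at least 2-fold were counted instead. At 24 h 17 of the 39 genes were at least 2-fold above the control, against 1.2% of all genes. They were Orc6, Cdt1, Mcm3, Mcm4, Mcm5, Mcm6, Mcm7, Mcm10, Cdc45, Pola1, Prim1, Pole, Lig1, Rrm1, Rrm2, Hells and Uhrf1. At 36 h 7 genes were, against 0.933% of all genes, namely Mcm5, Pola1, Prim1, Pole, Lig1, Rrm2 and Hells. The count at 24 h was 13 with array medians subtracted, 14 with quantile normalisation applied again and 16 with the mean of probe sets. With array medians subtracted, 38 of the 39 were above the control at 24 h. The count at 36 h was 4 with array medians subtracted or with quantile normalisation applied again.

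No gene passed the adjusted test in any comparison. In limma, with p-values adjusted over all 22180 genes, 0 of the 39 were called at 48 h or at 72 h against the control, at 72 h against 48 h, or for a slope over the toxin arrays, as were 0% of all genes. At an unadjusted p under 0.05, 24 of the 39 were higher at 48 h than in the control, against 8.16% of all genes, and over all 39 the adjusted p ran from 0.12 to 0.846. At 72 h 18 were higher than the control, against 7.93% of all genes, and over all 39 the adjusted p ran from 0.146 to 0.852. With 48 h array 1 or 2 left out, 13 were higher at 48 h, against 10.7% and 9.66% of all genes. At 72 h the count was 12 without 72 h array 1, against 8.53% of all genes, and 7 with 48 h array 1 left out and 7 with array 2 left out, against 9.48% each time.

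The trend over the 6 toxin arrays uses no control array. It was downward in 38 of the 39 genes and in 10782 of all 22180. The median slope of the 39 was -0.25 log2 units per 24 h, against 0.00 over all genes. At an unadjusted p under 0.05, 28 genes had a downward slope, against 4.47% of all genes, and over all 39 the adjusted p ran from 0.419 to 0.869. The count was 12 without the 24 h array, against 3.54% of all genes, and 13 without 72 h array 2, against 3.61%. The median slope without the 24 h array, which leaves 5 arrays of 1 sex pattern, was -0.17. Between 72 h and 48 h alone, 37 of the 39 genes were lower at 72 h, with a median of -0.22, as were 10531 of all 22180 genes. With array medians subtracted, 32 of the 39 were lower. At an unadjusted p under 0.05 there were 4, against 2.8% of all genes: Mcm4, Pola1, Tyms and Ccne1. With 1 array left out, the median difference was -0.27 without 72 h array 1 and -0.12 without 72 h array 2. It was -0.15 without 48 h array 1 and -0.26 without 48 h array 2. In the opposite directions at the same unadjusted p there were 0 of the 39 lower at 48 h than the control, against 11.6% of all genes, 0 lower at 72 h than the control, against 10% of all genes, 0 higher at 72 h than at 48 h, against 4.27%, and 0 with an upward slope, against 4.22%.

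**Figure D3:**
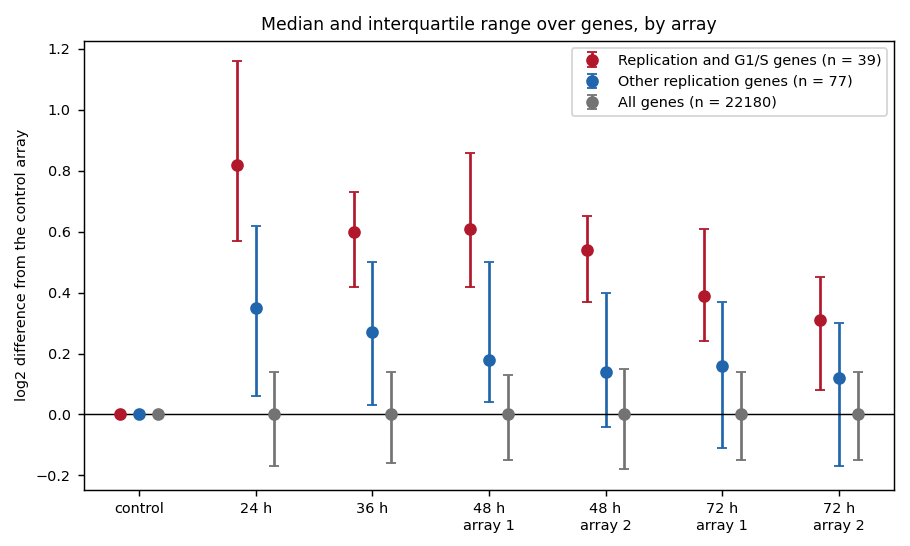
Median (point) and interquartile range over genes (bar) of the log2 difference from the control array, by array, for the 39 replication and G1/S genes, 77 other genes of the same pathways and all 22180 genes. Of the sets shown, the 39 genes stand highest on each toxin array, from 0.82 at 24 h to 0.31 on 72 h array 2. The median of all genes stays at 0.00.

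The 10 origin licensing genes were all above the control on every toxin array, against 20.2% of all genes. All 10 were highest at 24 h, against 14.2% of all genes. In limma all 10 had a downward slope at an unadjusted p under 0.05, against 4.47% of all genes. These slopes include the 24 h array, which differs from the later arrays in sex pattern. The median difference of these 10 genes was 1.11 at 24 h and 0.71 at 36 h, then 0.69 and 0.57 at 48 h, followed by 0.54 and 0.32 at 72 h. Mcm5, a subunit of the helicase ring, had a log2 signal of 6.06 on the control array, next to 7.52 at 24 h and 7.07 at 36 h, then 6.95 and 6.98 at 48 h, followed by 6.89 and 6.78 at 72 h. The time points did not overlap, the control was lowest, and the 72 h arrays stayed 0.78 ± 0.07 above it (SE of the limma fit, adjusted p = 0.146). Mcm6 had 6.29 on the control array, next to 7.74 at 24 h and 7.28 at 36 h, then 7.24 and 7.18 at 48 h, followed by 7.18 and 6.88 at 72 h.

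The other ring subunits were also highest at 24 h. Mcm7 had 6.68 on the control array, next to 7.97 at 24 h and 7.39 at 36 h, then 7.39 and 7.28 at 48 h, followed by 7.28 and 6.77 at 72 h. On 72 h array 2 Mcm7 was thus within 0.10 of the control, while Mcm5 on the same array was 0.72 above its own control value. Mcm3 and Mcm4 were 1.20 and 1.12 above the control at 24 h and averaged 0.26 and 0.40 above it at 72 h. Mcm2 had the smallest difference of the 6 ring subunits at 24 h, 0.62, and averaged 0.26 at 72 h. The slopes of the 6 ran from -0.14 ± 0.05 for Mcm2 to -0.42 ± 0.08 for Mcm3 per 24 h, with adjusted p of 0.532 and 0.419.

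The loaders of the ring were highest at 24 h too. Cdt1 was 1.04 above the control at 24 h and 0.61 at 36 h, then 0.67 and 0.55 at 48 h, followed by 0.61 and 0.38 at 72 h. Cdc6, the ATPase that works with Cdt1, was at 0.94, 0.47, 0.58 and 0.47, and 0.47 and 0.31 in the same order of arrays. Orc6, the smallest subunit of the origin recognition complex, was 1.10 above the control at 24 h and 0.61 on both 48 h arrays. Its 48 h values were exactly equal as deposited. Orc1, the subunit that varies with the cell cycle, was at 0.53 at 24 h and at 0.21 and 0.23 at 48 h. Orc1 came within 0.04 of the control on 72 h array 2.

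Helicase activation was less uniform. Mcm10, which helps to start the assembled helicase, was 1.03 above the control at 24 h and 0.60 at 36 h, then 0.84 and 0.68 at 48 h, followed by 0.58 and 0.49 at 72 h. Cdc45, a core part of the active helicase, had a log2 signal of 4.65 on the control array, next to 5.75 at 24 h and 5.18 at 36 h, then 5.21 and 5.26 at 48 h, followed by 5.11 and 4.60 at 72 h. The 72 h arrays of Cdc45 thus lay on either side of the control. Of the GINS subunits, Gins1 was 0.67 and Gins2 0.46 above the control at 24 h, and both stayed above it on every later array, by 0.13 to 0.61. Gins3 had 6.29 on the control array, next to 6.35 at 24 h and 6.40 at 36 h, then 6.27 and 6.14 at 48 h, followed by 6.28 and 6.03 at 72 h. It was the only 1 of the 39 below the control on both 48 h and both 72 h arrays, and its difference was -0.09 ± 0.15 at 48 h (adjusted p = 0.846).

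Among polymerases, the catalytic subunits of polymerase alpha and epsilon and the small primase subunit had the largest differences at 24 h and 36 h, and Pold1 the largest fitted difference at 72 h, 0.63 ± 0.07 (adjusted p = 0.146). Pola1, the catalytic subunit of polymerase alpha, had a log2 signal of 5.47 on the control array, next to 6.90 at 24 h and 6.59 at 36 h, then 6.38 and 6.38 at 48 h, followed by 6.09 and 5.94 at 72 h. Its time points did not overlap, and its slope of -0.42 ± 0.04 per 24 h had the largest ratio to its error of the 39 (adjusted p = 0.419). Pole, which copies the leading strand, was 1.33 above the control at 24 h and 1.09 at 36 h, then 0.92 and 0.94 at 48 h, followed by 0.46 and 0.75 at 72 h. A second probe set of Pole, at log2 signals of 3.66 to 3.89, was below the control on 5 of the 6 toxin arrays, with differences of -0.04 at 24 h and -0.08 at 36 h, then -0.17 and -0.01 at 48 h, followed by -0.12 and 0.06 at 72 h. With the mean of both probe sets the fitted difference of Pole at 48 h was 0.42 in place of 0.93, at 72 h 0.29 in place of 0.60, and its slope -0.17 in place of -0.35.

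Prim1, the primase subunit that makes RNA primers, had 6.17 on the control array, next to 7.42 at 24 h and 7.20 at 36 h, then 7.21 and 7.12 at 48 h, followed by 6.79 and 6.23 at 72 h. The 72 h arrays of Prim1 differed from each other more than its 24, 36 and 48 h arrays did. Prim2, the large primase subunit, was highest at 36 h, with differences of 0.35 at 24 h and 0.73 at 36 h, then 0.54 and 0.19 at 48 h, followed by 0.20 and 0.15 at 72 h. Pola2, the regulatory subunit of polymerase alpha, was 0.51 above the control at 24 h and 0.08 and 0.18 above it at 72 h. Pold1, the catalytic subunit of polymerase delta, showed no downward course: it was 0.58 or 0.59 above the control on the 24, 36 and 48 h arrays and 0.58 and 0.68 above it at 72 h. Its slope, 0.03 ± 0.03 per 24 h, was the only 1 of the 39 above 0. Pold1 had 5 distinct values over all arrays, and its 48 h arrays were exactly equal.

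Clamp and lagging-strand genes had a median difference of 0.65 at 24 h and of 0.33 and 0.07 at 72 h. Lig1, the ligase that joins Okazaki fragments, had a log2 signal of 5.42 on the control array, next to 6.99 at 24 h and 6.81 at 36 h, then 6.60 and 6.64 at 48 h, followed by 6.48 and 6.23 at 72 h. It remained 1.91-fold above the control at 72 h on average, against 2.96-fold at 24 h. Pcna, the sliding clamp, had 8.58 on the control array, next to 9.40 at 24 h and 9.0 at 36 h, then 9.14 and 8.97 at 48 h, followed by 8.93 and 8.61 at 72 h. Pcna was therefore within 0.03 of the control on 72 h array 2. Rfc5, of the clamp loader, was 0.84 above the control at 24 h and 0.33 and 0.05 above it at 72 h, and Rfc3, another loader subunit, was at 0.31 and at 0.22 and 0.09. Fen1, the flap nuclease, was 0.49 above the control at 24 h and 0.33 on both 72 h arrays, which had exactly equal values. Rpa2, a subunit of the single-strand binding protein, was 0.34 above the control at 24 h and highest on 48 h array 2, at 0.39, against 0.18 on 48 h array 1, and its 72 h arrays were at 0.08 and 0.06.

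Nucleotide supply was led by Rrm2, the S-phase subunit of ribonucleotide reductase. Rrm2 had a log2 signal of 5.71 on the control array, next to 7.88 at 24 h and 7.28 at 36 h, then 7.28 and 7.15 at 48 h, followed by 6.95 and 6.27 at 72 h, or 4.48-fold above the control at 24 h and 1.86-fold at 72 h on average. Its second probe set was also above the control on all 6 toxin arrays, by 0.80 at 24 h and 0.37 and 0.34 at 72 h. Rrm1, the large subunit of the same enzyme, was 1.07 above the control at 24 h and 0.68 at 36 h, then 0.87 and 0.51 at 48 h, followed by 0.48 and 0.06 at 72 h. Tyms, which makes thymidylate, was highest at 36 h, at 0.78, and stood at 0.13 and 0.31 at 72 h, where it was -0.41 ± 0.11 from the 48 h arrays (adjusted p = 0.705). Tk1, the salvage thymidine kinase, was 0.82 above the control at 24 h and 0.13 and 0.42 above it at 72 h. Dut, which removes dUTP, was 0.72 above the control at 24 h, and its 72 h arrays lay on either side of the control, at 0.37 and -0.07. All 5 genes were lower on both 72 h arrays than on both 48 h arrays, as were 23 of the 39 in all and 13.0% of all genes.

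Chromatin genes held the largest single difference. Hells, a chromatin remodeller needed for DNA methylation, had a log2 signal of 5.27 on the control array, next to 7.98 at 24 h and 7.24 at 36 h, then 7.03 and 7.28 at 48 h, followed by 6.86 and 6.42 at 72 h. This is 6.55-fold above the control at 24 h and 2.59-fold at 72 h on average, and no toxin array came within 1.15 of the control. Its slope was -0.59 ± 0.12 per 24 h (adjusted p = 0.43). Uhrf1, which brings the maintenance methyltransferase to replicated DNA, was 1.00 above the control at 24 h and 0.60 at 36 h, then 0.74 and 0.55 at 48 h, followed by 0.62 and 0.39 at 72 h.

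The 2 large subunits of chromatin assembly factor 1, which deposits histones on new DNA, are given side by side. Chaf1b was 0.81 above the control at 24 h and 0.39 and 0.08 above it at 72 h. Chaf1a was 0.70 above the control at 24 h and 0.74 at 36 h, then 0.88 and 0.66 at 48 h, followed by 0.64 and 0.66 at 72 h, with a slope of -0.04 ± 0.05 (adjusted p = 0.868). Whether the slopes of the 2 genes differ was not tested. Slbp, which binds the end of histone mRNA, was 0.78 above the control at 24 h, between 0.42 and 0.43 at 36 and 48 h, and 0.43 and 0.35 above it at 72 h. Its 48 h arrays had exactly equal values.

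The regulators of entry into S phase were represented by 2 measured genes, with differences of 0.54 and 0.38 at 24 h. Ccne1, cyclin E1, had a log2 signal of 5.01 on the control array, next to 5.55 at 24 h and 5.29 at 36 h, then 5.53 and 5.61 at 48 h, followed by 5.24 and 5.15 at 72 h. Its 48 h arrays lay on either side of its 24 h array, and the 72 h arrays were -0.37 ± 0.06 from the 48 h arrays (adjusted p = 0.705). E2f1, an activating E2F factor, was 0.38 above the control at 24 h and between 0.05 and 0.22 on the later arrays.

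**Figure D4:**
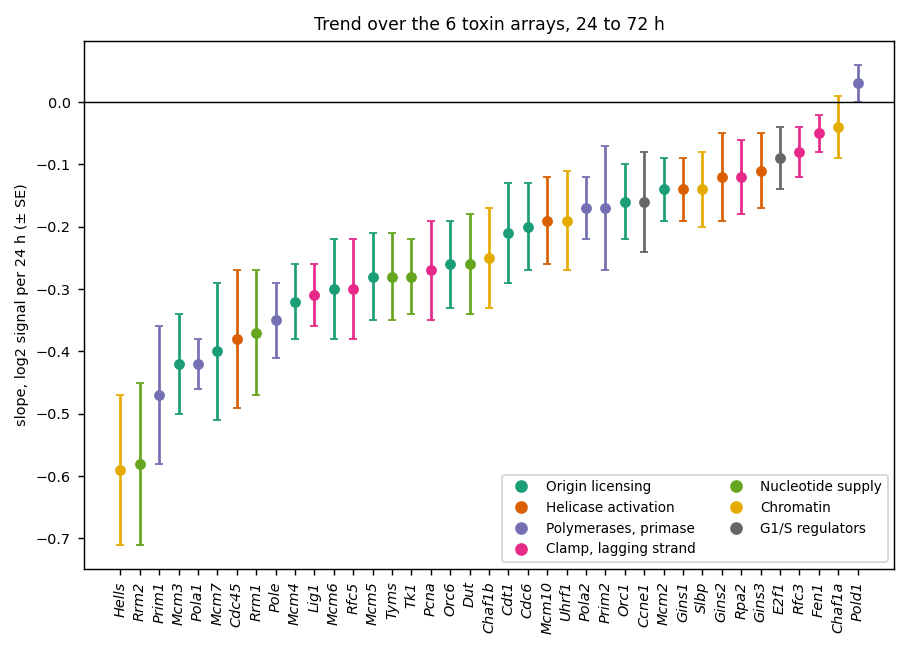
Slope of log2 signal per 24 h over the 6 toxin arrays (point) with its standard error from limma (bar) for the 39 genes, ordered by slope and coloured by step. Slopes ran from -0.59 for Hells to 0.03 for Pold1, and no slope passed the adjusted test.

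The 72 h arrays differed from each other. Of the 39 genes, 29 were higher on array 1 than on array 2, 9 were lower and 1 was equal, with a median difference of 0.14, against 0.00 over all genes. Of all 22180 genes, 9634 were higher on array 1 and 2367 were equal. The 7 measured squamous forestomach markers were all higher on array 1, by a median of 0.98, and 9 of 11 parietal cell genes were lower there, with a median of -0.27. At 48 h, 26 of the 39 were higher on array 1 than on array 2 and 3 were equal, with a median difference of 0.08. Of all 22180 genes, 10006 were higher on 48 h array 1 and 2485 were equal. All 7 squamous markers were lower on 48 h array 1, with a median of -0.47, and 1 of 11 parietal cell genes was higher there, with a median of -0.48. In both pairs the parietal cell genes were thus mostly lower on the array where most of the replication genes were higher. Between 36 h and 48 h array 1, however, the parietal median went from -0.62 to -1.25 while the replication median was 0.60 and 0.61. The part of these cells in the spread of the replication genes was not tested.

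Genes of the same pathways outside the set had smaller median differences. The set and these lists were chosen with earlier results of these data known. The lists also hold genes below the control throughout, among them Cdkn1c, Rbl2, Rrm2b and Tk2. The smaller medians are therefore a description only. Of 81 further genes listed, 77 were measured, and their median difference was 0.35 at 24 h and 0.27 at 36 h, then 0.18 and 0.14 at 48 h, followed by 0.16 and 0.12 at 72 h. None was called in limma. At an unadjusted p under 0.05, 27 were higher and 7 lower at 48 h than the control, against 8.16% and 11.6% of all genes. By the same measure 18 were higher and 10 lower at 72 h, against 7.93% and 10% of all genes. A downward slope at this p was found for 30 and an upward slope for 2, against 4.47% and 4.22% of all genes. Above the control on all 6 toxin arrays were 39 of the 77, against 20.2% of all genes. They included 8 of 17 of licensing and firing, 9 of 18 of polymerases and the fork, 4 of 10 of nucleotide supply, 5 of 8 of chromatin and 13 of 24 regulators.

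Among licensing and firing genes, Ticrr, which helps to recruit Cdc45, was 1.74 above the control at 24 h and 1.41 at 36 h, then 1.31 and 1.44 at 48 h, followed by 1.31 and 1.05 at 72 h. Dbf4, the activating subunit of the Cdc7 kinase, was 1.01 above the control at 24 h and Cdc7 0.57, and Wdhd1, which ties polymerase alpha to the helicase, was at 0.79. Of the fork genes, Atad5, which unloads the clamp, was 1.20 above the control at 24 h, the checkpoint adaptor Clspn 0.96, the nuclease-helicase Dna2 0.66 and the polymerase delta subunit Pold3 0.48. Pold3 was 1.09 above the control on 48 h array 1 and 0.19 on array 2. Of the chromatin genes at 24 h, the histone chaperone Asf1b was at 1.06, the maintenance methyltransferase Dnmt1 at 0.88, the histone acetyltransferase Hat1 at 0.88 and the histone-binding protein Rbbp7 at 0.44.

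Nucleotide supply outside the set went both ways. Rrm2b, the ribonucleotide reductase subunit used outside S phase, was below the control on all 6 toxin arrays, by 0.59 to 0.83, and so was Tk2, the mitochondrial thymidine kinase, by 0.47 to 1.15. Shmt1, of folate metabolism, and Dctpp1, which cleaves unwanted dCTP analogues, were above the control on all 6, by at most 0.51. Among regulators, Ccna2, cyclin A2, was 1.70 above the control at 24 h and 0.80 and 0.41 above it at 72 h, and E2f8, a repressive E2F factor, was at 1.19 and at 0.62 and 0.59. Cdkn1c, an inhibitor of cyclin-dependent kinases, had a log2 signal of 7.44 on the control array and 5.04 to 5.47 on the toxin arrays, with no trend over them (slope 0.03 ± 0.09, adjusted p = 0.957). Rbl2, a relative of the retinoblastoma protein found in resting cells, was likewise below the control throughout, by 0.77 to 1.11. As in every difference from the control, a trait of the lone control array and an effect of the toxin cannot be told apart here.

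Genes of G2 phase and mitosis, measured by 21 genes here, were higher than the control as well, with medians of 1.33 at 24 h and 0.95 at 36 h, then 1.03 and 0.84 at 48 h, followed by 0.74 and 0.34 at 72 h. On every toxin array this median was above that of the 39 genes. The 24 h array was the highest for 20 of the 21, against 14.2% of all genes. In limma all 21 had a downward slope at an unadjusted p under 0.05, against 4.47% of all genes.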

How the data were processed

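The labels' protocols give RNA extraction by column and labelling by the Affymetrix WT plus reagents. The deposited values are log2 signal of 41345 probe sets over 7 arrays; the submitters' processing notes name RMA and Partek, with versions and build not given in the sources used. RMA quantile-normalises the arrays and compresses large and dim differences. Arrays have no read depth, and their number limits the precision.

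Of the probe sets 23521 had 1 gene, 1814 several and 16010 none in the platform's annotation. Entrez identifiers matched the GRCm38.p6 gene table for 23328, with no symbol changed. That left 22180 genes. Some genes had exactly equal deposited values on several arrays (no rounding): 26 of the 39 genes and 8813 of all had 7 distinct values. Equal values within a pair lower the estimated spread. Among genes with at least 6 distinct values, 26 of 35 were higher at 48 h than the control at an unadjusted limma p under 0.05. At 72 h 13 of 35 were. The shares of all genes tested there were 8.07% and 7.8%.

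Groups come from the sample titles. The limma package (3.58.1, R 4.3.3) was used with eBayes and Benjamini-Hochberg adjustment over all genes. A fit of 1 mean per group to the 7 arrays left 2 residual degrees of freedom, both from the pairs at 48 h and 72 h, and takes the single control to vary as those pairs do. A slope per 24 h was fitted on the 6 toxin arrays, with 4. The pipeline was tested on simulated data. Promoters are those of RefSeq (250 bases before to 50 after each start).

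All measured genes of the set are named. Of the other pathway lists, up to 4 genes with the largest absolute mean difference of the toxin arrays from the control are named. Other probe sets of a gene are given where their sign differs at 48 h, and also for Rrm2, Fen1 and Dut, where it does not. The members and lists were chosen with earlier results of these data known.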

Additional observations from a re-analysis of the deposited data

Results flagged for a closer look

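Ccne2, cyclin E2, was outside the counts because its probe set is shared with Ints8. That probe set lay above the control on all 6 toxin arrays, with a log2 signal of 5.72 on the control array, next to 6.66 at 24 h and 6.14 at 36 h, then 6.32 and 6.21 at 48 h, followed by 5.95 and 6.14 at 72 h, a difference of at most 0.93, at 24 h. It is given here as a signal outside the main measurement, and which of the 2 genes it comes from cannot be told apart.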

How the results depend on the processing

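Of 1571 recomputed values of single genes, 15 turned in sign, none to more than 0.08 from 0. Called genes of the set numbered 0 in every comparison and setting except 1: among genes with at least 6 distinct values, 2 passed at 48 h against the control, Hells at 1.89 (adjusted p = 0.0426) and Lig1 at 1.20 (adjusted p = 0.0497); fewer genes were tested there. Over all genes the calls at 48 h and 72 h, 0 and 0 in the report, were 143 and 52 in that setting, 167 and 30 with array medians subtracted and 7 and 5 with quantile normalisation again; with medians subtracted 20 of the 167 were higher. The count of genes at least 2-fold higher was 13 at 24 h and 4 at 36 h with array medians subtracted. It was 14 and 4 with quantile normalisation again, and 16 and 6 with the mean of probe sets. The count above the control on all toxin arrays, recomputed after seeing the data, was 32 with array medians subtracted (12.2% of all genes), 34 with quantile normalisation again (17.0%), 37 with the mean of probe sets (20.3%) and 36 to 38 with each toxin array left out (21.7% to 22.3%). At 72 h against 48 h, E2f1, Fen1, Gins1, Gins3 and Slbp turned to 0.05, 0.03, 0.03, 0.02 and 0.04 with array medians subtracted, and E2f1, Fen1 and Gins1 to 0.03, 0.02 and 0.03 with quantile normalisation again; the cause was not tested. With 1 array left out in turn, that difference ran from -0.10 to 0.06 for E2f1, -0.12 to 0.04 for Gins1, -0.17 to 0.08 for Gins3 (0.02 without 48 h array 1) and -0.06 to 0.01 for Slbp, and at 72 h against the control from -0.05 to 0.46 for Cdc45 and -0.07 to 0.37 for Dut, both negative without 72 h array 1. Array medians subtracted shift the median gene by -0.12 at 48 h. The medians of the 39 at 48 h against the control ran from 0.54 to 0.61 with 1 array left out, and were 0.47 with array medians subtracted and 0.53 with quantile normalisation again. The numbers shared by the 48 h and 72 h titles do not pair the arrays by any label; their within-pair differences correlated at -0.13 across genes, which are not independent replicates. With the replicate block, on the 4 arrays of 48 h and 72 h, 0 genes were called and 8 of the 39 were lower at an unadjusted p under 0.05, against 2.38% of all genes. With the crossed pairing, chosen after seeing the data, these counts were 0 and 6, against 2.41%. A design of 1 and 2 arrays per group limits every test here.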

Other observations

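Other probe sets that name a gene of the set together with a neighbour or copy are given as values. The probe set shared by Rfc4, a clamp loader subunit, and Eif4a2 was 1.00 above the control at 24 h and 0.87 at 36 h, then 0.75 and 0.57 at 48 h, followed by 0.64 and -0.14 at 72 h. Introns of Mcm7 hold microRNA genes, and the probe set shared with Mir25 was -0.03 from the control at 24 h and -0.20 at 36 h, then -0.31 and 0.17 at 48 h, followed by 0.04 and 0.14 at 72 h, whereas the probe set of Mcm7 alone was 1.30 above the control at 24 h. The probe set shared by Tyms and its pseudogene Tyms-ps was at 0.03 at 24 h and 0.65 at 36 h. The second probe sets of Fen1 and Dut were above the control on all 6 toxin arrays, by 0.22 to 0.27 and by 0.06 to 0.33.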
